A study of Mus musculus with 5 samples.

Results

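Small leucine-rich proteoglycans and the receptors of the fibroblasts that make them were examined in mouse thyroid. The set held 10 genes chosen by name as stromal fibroblast genes: the 7 proteoglycan genes Dcn, Bgn, Aspn, Lum, Fmod, Prelp and Ogn, and the 3 cell surface genes Pdgfra, Pdgfrb and Thy1. All 10 were present among the 16413 genes of the count table, and all 10 were among the 15765 genes tested. The lowest count of any of them in any library was 1213, so none depended on the filter for low counts.

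The high fat diet group was LSL-BrafV600E;TgCreERT2 mice given tamoxifen for 1 week at 8 weeks of age and fed the fat-rich food for 12 weeks, between the ages of 10 and 22 weeks (3 libraries, replicates 2, 9 and 10). The chow group had the same alleles and the same tamoxifen (2 libraries, replicates 2 and 8). Every library is therefore from a thyroid with induced mutant Braf, and the diet is the one comparison. The Cre of TgCreERT2 is driven by the thyroglobulin promoter, which is active in follicular cells, so the allele is targeted to thyrocytes and not to fibroblasts. Total RNA of whole thyroid was sequenced to between 43494747 and 52663677 counts per library, of which thyroglobulin alone took from 10.9% to 22.1%. Its share was 17.1%, 14.9% and 10.9% in high fat diet replicates 2, 9 and 10. It was 18.7% and 22.1% in chow replicates 2 and 8, so the diets did not overlap. The part of this difference in the members' levels was not tested. The labels number the samples and do not say whether the numbers stand for different animals, so the spread behind the p-values may be partly technical. With 3 libraries against 2, an exact permutation test of a single value could not go below a two-sided p of 0.2.

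Small leucine-rich proteoglycans are secreted proteins built around a curved stack of leucine-rich repeats, and most carry chains of chondroitin, dermatan or keratan sulfate. They coat collagen fibrils, set how thick the fibrils grow and how they are spaced, and hold growth factors such as TGF-beta in the matrix. Decorin (Dcn), biglycan (Bgn) and asporin (Aspn) form class I of the family, lumican (Lum), fibromodulin (Fmod) and prolargin (Prelp) belong to class II, and osteoglycin (Ogn) belongs to class III. Pdgfra and Pdgfrb are receptor tyrosine kinases for platelet-derived growth factors, the first a usual mark of fibroblasts and the second shared by fibroblasts and the mural cells of vessels. Thy1 is a GPI-anchored surface protein of fibroblasts that in mice is also abundant on T cells and neurons.

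Levels of other listed fibroblast genes are given beside the members. In whole tissue they cannot show which cells the members' reads came from. All 16 listed fibroblast markers, among them Col1a1, Dpt, Pi16 and Clec3b, were tested, and their lowest count in any library was 396. Their summed level was 4601, 6257 and 7974 CPM (read counts scaled to a common library size with TMM factors) in high fat diet replicates 2, 9 and 10, and 6522 and 5270 CPM in chow replicates 2 and 8. The groups overlapped, with 12 of the 16 above a log2 fold change of 0 and a median of 0.06. The sums are weighted to abundant collagens. Col3a1 alone, picked after its values were seen, had 1557, 2562 and 3466 CPM on the high fat diet and 2754 and 2040.5 CPM on chow. As list medians of log2 CPM minus the gene's mean, the libraries stood at -0.11, 0.08 and 0.14, and at 0.15 and -0.19 on chow. In whole tissue, fewer fibroblasts and less RNA per fibroblast cannot be told apart, and this holds for every value here.

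Genes of the family lie in neighbouring groups in the mouse genome (positions from GENCODE on mm10). Prelp (chromosome 1, 133910304 to 133921414, minus strand) lies 116 kb from Fmod (134037254 to 134048277, plus strand). Dcn (chromosome 10, 97479609 to 97518143) is followed by Lum (97565128 to 97572703) and by the related genes Kera and Epyc, all on the plus strand. On chromosome 13, Ecm2, Aspn (49544443 to 49567565), Omd and Ogn (49608046 to 49624501) stand in a row on the plus strand, inside the span of Cenpp, a centromere gene on the other strand. Bgn is on chromosome X (73483602 to 73495933), Pdgfra on chromosome 5 (75152292 to 75198215) and Thy1 on chromosome 9 (44043384 to 44048579), each on the plus strand. The sources used here do not say if counting used strand, so reads from bases shared with a gene on the other strand could be counted for either. The spans of Aspn and Ogn overlap that of Cenpp, Prelp overlaps the antisense gene Gm15851 and Pdgfra overlaps Gm42802. Whether their exons share bases was not examined. Cenpp itself was at 0.927, 0.896 and 1.70 CPM on the high fat diet and at 0.973 and 0.974 CPM on chow.

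The 150 bases before a RefSeq transcript start are shown for the neighbours Prelp and Fmod, whose levels had the highest fold changes of the set. Those before Aspn and Ogn, which lie on either side of Omd, and before Bgn, the only member on chromosome X, are shown too. They are from RefSeq on GRCm38.p6, 5′ to 3′ on the gene's strand, at chr1:133921402-133921551 (Prelp), chr1:134037104-134037253 (Fmod), chr13:49544293-49544442 (Aspn), chr13:49607865-49608014 (Ogn) and chrX:73483451-73483600 (Bgn). Capitals mark matches, on either strand, to the motifs searched, which were the TATA box with the letters TATAAA, the box named by its letters CCAAT, the GC box with the letters GGGCGG, the site of TEAD factors with the letters GGAATG and the AP-1 site with the letters TGACTCA.
Prelp: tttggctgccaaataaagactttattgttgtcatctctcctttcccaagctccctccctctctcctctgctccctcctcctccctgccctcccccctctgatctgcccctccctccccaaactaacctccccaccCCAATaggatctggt
Fmod: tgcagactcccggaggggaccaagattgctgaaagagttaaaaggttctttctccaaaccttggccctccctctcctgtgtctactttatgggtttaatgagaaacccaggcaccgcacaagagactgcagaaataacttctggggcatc
Aspn: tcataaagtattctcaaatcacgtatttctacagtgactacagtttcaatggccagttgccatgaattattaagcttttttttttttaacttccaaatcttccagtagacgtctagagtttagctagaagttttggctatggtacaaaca
Ogn: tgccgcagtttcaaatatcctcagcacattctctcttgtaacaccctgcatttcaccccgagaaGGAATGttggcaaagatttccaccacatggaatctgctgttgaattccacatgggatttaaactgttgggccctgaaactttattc
Bgn: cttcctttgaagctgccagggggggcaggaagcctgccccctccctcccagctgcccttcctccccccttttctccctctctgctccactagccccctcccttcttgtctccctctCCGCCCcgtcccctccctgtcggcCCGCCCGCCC

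A sequence was found for 6 of the 10 genes, these and Pdgfra. No motif searched was found in both Prelp and Fmod, or in both Aspn and Ogn. Prelp held CCAAT, present in 24.5% of the 32851 promoters of the table over the same window, while Fmod held none. Ogn held GGAATG, present in 7.59% of promoters, and Aspn held none. Bgn held GGGCGG at 3 places, the last 2 of them overlapping, where 28.6% of promoters hold at least 1. TATAAA, which 7.57% of promoters hold, and TGACTCA, which 2.84% hold, were in none of the 6 windows. The share of G and C was 70.0% before Bgn and 56.0% before Prelp, 49.3% before Fmod, 44.0% before Ogn and 33.3% before Aspn, where the median promoter had 54.0%.

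The genes kept much the same order of levels on both diets. On the authors' FPKM values (fragments scaled by gene length and library size), which allow a comparison between genes, Dcn led, averaging 303 ± 4.77 FPKM in high fat diet libraries (SD, n = 3) and 299.99 ± 73.3 FPKM in chow libraries (SD, n = 2), and 116 of the 16413 genes had a higher mean over the 5 libraries. Bgn followed with 157 ± 38.3 FPKM on the high fat diet and 141 ± 21.5 FPKM on chow. Dcn lay above Bgn, and Bgn above Lum, with no overlap of their ranges over the 5 libraries.

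Lumican was at 78.1 ± 25.1 FPKM on the high fat diet and 79.7 ± 17.1 FPKM on chow, and asporin at 66.7 ± 11.3 FPKM on the high fat diet and 62.9 ± 18.4 FPKM on chow. Their ranges overlapped, and Lum was above Aspn in 4 of 5 libraries. Prelp stood at 49.4 ± 3.65 FPKM on the high fat diet and 37.1 ± 8.999 FPKM on chow, below Aspn in each of the 5 libraries. Ogn and Fmod did not differ beyond their spread: Ogn was at 26.5 ± 4.17 FPKM on the high fat diet and 29.9 ± 6.96 FPKM on chow, Fmod was at 30.2 ± 4.72 FPKM on the high fat diet and 23.1 ± 3.55 FPKM on chow, and Ogn was the higher one in 3 of 5 libraries.

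The receptor genes were the lowest. Pdgfrb had 16.0 ± 2.44 FPKM on the high fat diet and 17.8 ± 1.43 FPKM on chow, and Thy1 had 16.0 ± 2.31 FPKM on the high fat diet and 17.2 ± 2.22 FPKM on chow, so these genes did not differ beyond their spread. Pdgfra came last in each library, at 11.3 ± 0.731 FPKM on the high fat diet and 11.7 ± 2.20 FPKM on chow. Decorin took 48.6%, 42.2% and 38.1% of the summed FPKM of the 7 proteoglycan genes in high fat diet replicates 2, 9 and 10, and 45.1% and 43.7% in chow replicates 2 and 8. The highest and the lowest share were thus both from high fat diet libraries.

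**Figure D1:**
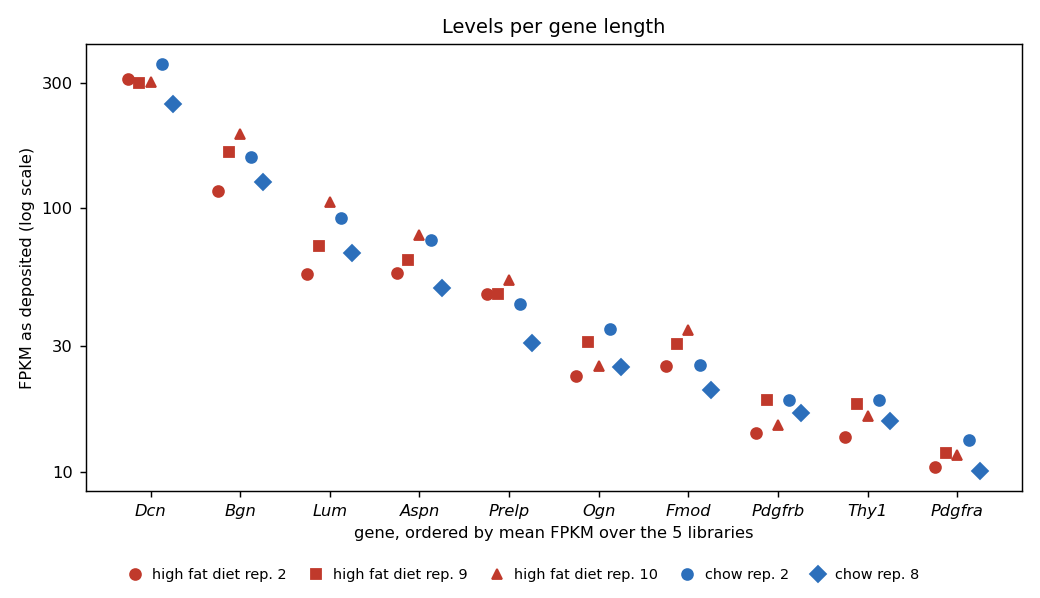
FPKM of the 10 genes in each of the 5 libraries on a log axis, genes ordered by their mean over libraries (red, high fat diet; blue, chow; each symbol is 1 library). Dcn is highest in every library and Pdgfra lowest in every library, and the diets overlap for each gene but Prelp, which has 47.2 to 53.6 FPKM on the high fat diet and 30.8 and 43.5 FPKM on chow.

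None of the 10 genes passed the test between the diets. In edgeR's quasi-likelihood test over all 15765 genes, with Benjamini-Hochberg adjustment and a threshold of 0.05, 0 members passed as higher and 0 as lower, as did 0% of all genes in either direction. DESeq2 and limma-voom also called 0 of the 10, where DESeq2 called 0.305% of all genes higher and 0.292% lower. At a threshold of 0.10 edgeR also called 0 of the 10, against 0.0381% of all genes higher and 0.0254% lower. At an unadjusted p under 0.05 it gave 1 of the 10, Prelp, against 2.95% of all genes higher and 2.47% lower. The log2 fold changes ran from -0.25 to 0.33 with 4 above 0 and 6 below, where 52.7% of all genes were above and 47.3% below. Their median was -0.08, beside 0.01 over all genes. The widest bound of any 95% interval was -0.70, that of Lum, so none of the 10 intervals reached an absolute log2 fold change of 1.

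Among class I proteoglycans, Dcn, which binds collagen and restrains TGF-beta and receptor tyrosine kinases, differed by less than the spread between libraries. It had 599, 556 and 541 CPM in high fat diet replicates 2, 9 and 10 and 678 and 503 CPM in chow replicates 2 and 8. Both extremes were chow libraries, and the log2 fold change was -0.06 (SE 0.15, 95% interval -0.40 to 0.27, edgeR adjusted p = 0.996). The sign was set by the scaling and by single libraries: it was 0.01 without TMM factors, 0.04 on log2(FPKM + 1) and 0.16 without chow replicate 2.

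Bgn, whose soluble form is also a ligand of the innate receptors Tlr2 and Tlr4, had 293, 399 and 445 CPM on the high fat diet and 391 and 332 CPM on chow. The high fat diet libraries surrounded the chow ones, and the log2 fold change was 0.07 (SE 0.18, interval -0.35 to 0.49, edgeR adjusted p = 0.996), or -0.06 without high fat diet replicate 10 and -0.04 without chow replicate 8. Aspn, which carries an aspartate-rich stretch in place of sugar chains, had 139, 150.4 and 178 CPM on the high fat diet and 184 and 127 CPM on chow. Its log2 fold change was 0.00 (0.0037, SE 0.17, edgeR adjusted p = 0.999), with -0.10 without high fat diet replicate 10, -0.23 without chow replicate 8, and values just below 0 with RLE factors (-0.000666) and with Tg left out of the totals (-0.000171).

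Among class II, Prelp, which links basement membranes to the collagen beneath them, had 177, 170.3 and 185 CPM on the high fat diet and 162 and 120.4 CPM on chow. The lowest high fat diet value exceeded the highest chow value, and Prelp was the only member for which the groups did not overlap, where 10.6% of all genes lay wholly higher and 10.3% wholly lower, so 1 of 10 is near the background. High fat diet libraries averaged 178 ± 7.27 CPM (SD, n = 3) and chow libraries 141 ± 29.1 CPM (SD, n = 2), a log2 fold change of 0.33 (SE 0.14, interval 0.02 to 0.65). Its unadjusted p of 0.040 ranked 703 among all genes, and the edgeR adjusted p was 0.884. Without chow replicate 8 the log2 fold change was 0.14, and without chow replicate 2 it was 0.56.

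Fmod, which binds collagen and directs its cross-linking, had 74.8, 88.0 and 94.6 CPM on the high fat diet and 75.4 and 63.8 CPM on chow. High fat diet replicate 2 lay just below chow replicate 2, so the groups overlapped by that library. The log2 fold change was 0.30 (SE 0.14, interval -0.006 to 0.61, edgeR adjusted p = 0.910), with 0.19 without chow replicate 8 and 0.42 without chow replicate 2. Prelp and its neighbour Fmod were thus the members with the highest fold changes, and neither passed.

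Lum, which shapes the collagen fibrils of cornea, skin and other connective tissue, varied most within the high fat diet group, with 122, 149.7 and 209.6 CPM in replicates 2, 9 and 10, and 196 and 152 CPM in chow replicates 2 and 8. The high fat diet group held both the lowest and the highest library. The log2 fold change was -0.12 (SE 0.24, interval -0.70 to 0.46, edgeR adjusted p = 0.996), and it was 0.04 without high fat diet replicate 2, 0.07 without chow replicate 2 and -0.36 without high fat diet replicate 10.

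Ogn, the class III member, which takes part in bone and connective tissue matrix, had 61.0, 79.3 and 61.3 CPM on the high fat diet and 91.2 and 68.9 CPM on chow. High fat diet replicate 9 lay between the chow libraries, and the other two below them. The log2 fold change was -0.25 (SE 0.16, interval -0.63 to 0.12, edgeR adjusted p = 0.970), the lowest of the set, with -0.04 without chow replicate 2 and -0.44 without chow replicate 8.

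All 3 receptor genes had fold changes below 0, and none passed. Pdgfra had 66.0, 73.2 and 68.9 CPM on the high fat diet and 83.9 and 65.0 CPM on chow. The high fat diet libraries fell between the chow ones, with a log2 fold change of -0.10 (SE 0.13, edgeR adjusted p = 0.996), or 0.09 without chow replicate 2.

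Pdgfrb (chromosome 18, 61045150 to 61085061, plus strand) had 79.3, 101.7 and 78.1 CPM on the high fat diet and 105 and 98.8 CPM on chow. High fat diet replicate 9 was level with chow and the other two lay below it, for a log2 fold change of -0.24 (SE 0.14, interval -0.55 to 0.07, edgeR adjusted p = 0.966), and -0.37 without high fat diet replicate 9. The 10 mural markers, all tested and including Rgs5, Cspg4 and Notch3, summed to 862, 989.7 and 802 CPM on the high fat diet and 944 and 794 CPM on chow, with 6 above 0 and a median of 0.05. The sums are weighted to Rgs5, which had 482, 561 and 451 CPM on the high fat diet and 496 and 434 CPM on chow. High fat diet replicate 9 was the high one there too, while chow replicate 8 had the lowest mural sum but not the lowest Pdgfrb. The part of mural cells in the level of Pdgfrb was not tested.

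Thy1 had 24.4, 31.5 and 27.2 CPM on the high fat diet and 33.6 and 29.5 CPM on chow, again with high fat diet replicate 9 between the chow libraries. The log2 fold change was -0.19 (SE 0.14, interval -0.51 to 0.13, edgeR adjusted p = 0.980). The 8 T cell genes tested of 9 listed, with Cd3e, Cd3d and Cd3g, summed to 19.6, 17.8 and 18.4 CPM on the high fat diet and 24.0 and 16.7 CPM on chow, and their lowest count was 3. The 7 nerve genes tested of 9 listed summed to 71.0, 71.7 and 68.9 CPM on the high fat diet and 89.4 and 98.4 CPM on chow, with 6 of 7 below 0 and a median of -0.36. The nerve sums did not overlap between the diets, and the lowest count of that list was 10. These sums are weighted to the glial genes Mbp and S100b. Mbp averaged 51.2 CPM on the high fat diet and 65.9 CPM on chow, and S100b 10.7 and 17.6 CPM. The neuronal genes Nefl and Snap25, picked after their values were seen, had log2 fold changes of -0.48 (SE 0.56) and 0.36 (SE 0.53). Nefl lay at 0.193 to 0.438 CPM and Snap25 at 0.509 to 1.57 CPM. The part of T cells or neurons in the level of Thy1 was not tested.

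**Figure D2:**
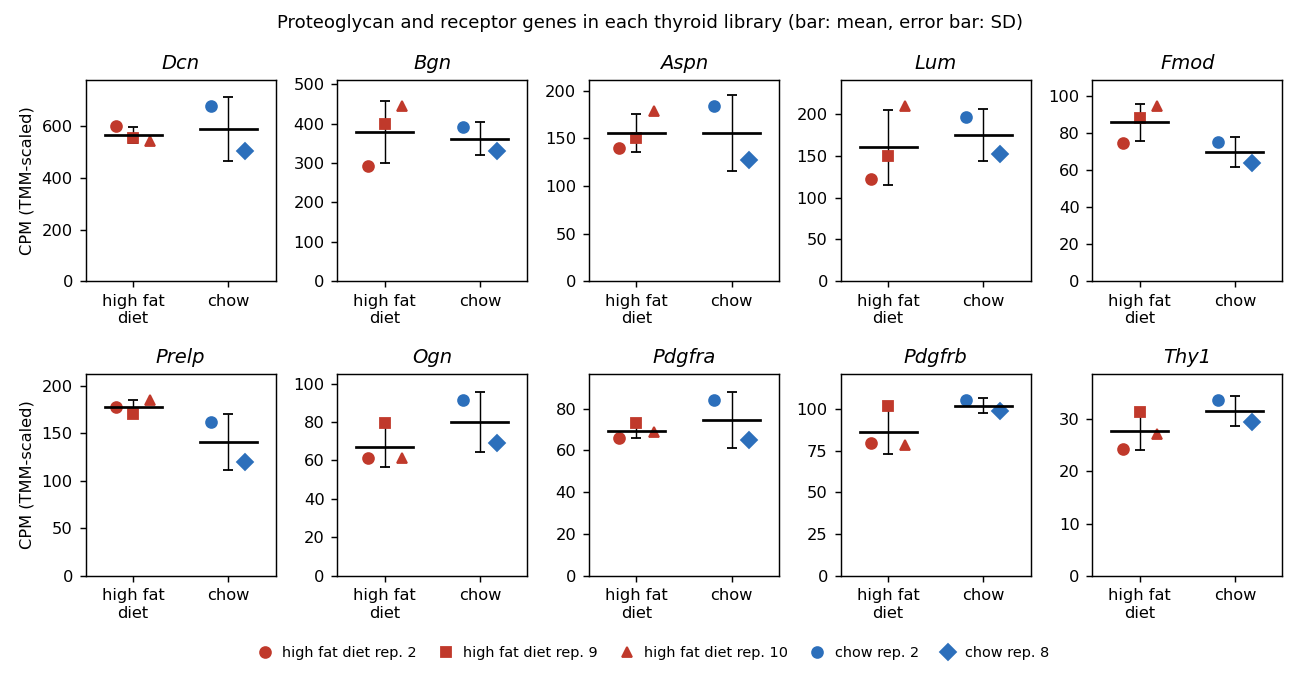
TMM-scaled CPM of each gene in the 3 high fat diet libraries and the 2 chow libraries, with the group mean as a bar and the SD as an error bar, on axes that start at 0. Prelp is the 1 gene whose high fat diet libraries (170.3 to 185 CPM) all lie above both chow libraries (120.4 and 162 CPM).

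All 10 members were lower in chow replicate 8 than in chow replicate 2, where 50.2% of all genes were, and the ratio of replicate 2 to replicate 8 ran from 1.06 for Pdgfrb to 1.44 for Aspn. On the log2 scale the median gap was 0.37 for the members and 0.00 (0.0011) for all genes. It was larger than the diet fold change for 7 of the 10 members, a share near the 59.0% of all genes, and Fmod, Pdgfrb and Thy1 were the other members. The 5 members lowest in chow replicate 8 were Dcn, Aspn, Fmod, Prelp and Pdgfra, where 20.2% of all genes were lowest. In chow replicate 2, 6 members were highest, as were 18% of all genes.

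Other tissue markers also separated the chow libraries. The 8 skeletal muscle markers summed to 1564, 1337 and 911 CPM on the high fat diet and to 1776 and 622 CPM in chow replicates 2 and 8. The 7 adipocyte markers summed to 65.6, 67.5 and 42.3 CPM on the high fat diet and to 93.4 and 116 CPM on chow. These sums also differed by diet without overlap, with 6 of 7 genes below 0, a median of -1.05 and 0 passed in edgeR. Of the 7 genes 5 were wholly lower, where 10.3% of all genes were. The macrophage list summed to 375, 431 and 478 CPM on the high fat diet and to 435 and 361 CPM on chow. Muscle and macrophage genes were lower in chow replicate 8, as the members were, while adipocyte genes were higher there. Their part in the members' levels was not tested.

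**Figure D3:**
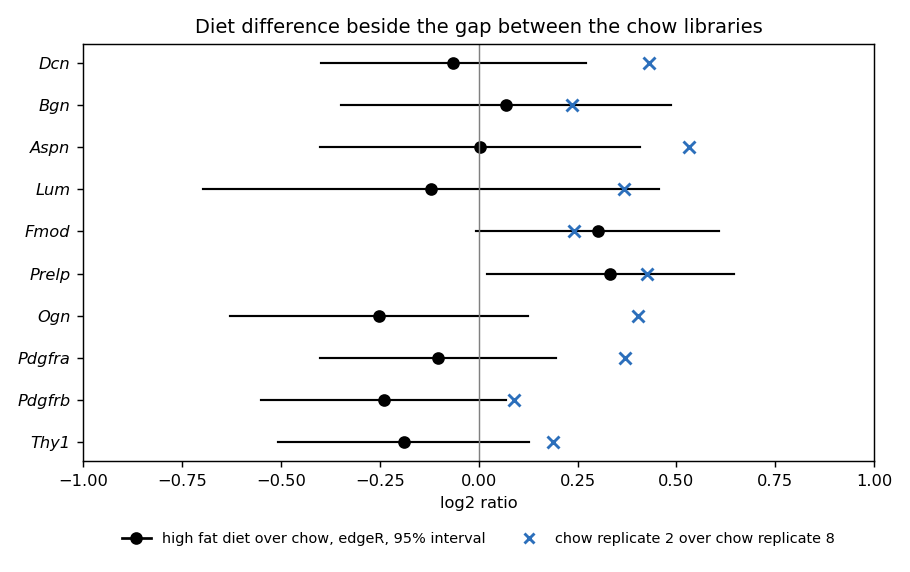
The log2 fold change of high fat diet over chow for each gene with its 95% interval (black), beside the log2 ratio of chow replicate 2 to chow replicate 8 (blue crosses). All crosses lie right of 0, from 0.09 for Pdgfrb to 0.53 for Aspn, and for 7 of the 10 genes, against 59.0% of all genes, the cross is farther from 0 than the diet fold change.

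Setting each gene against Dcn in the same library is a scale chosen after the gap between the chow libraries was seen. On it Prelp stood at 0.296, 0.306 and 0.341 of the CPM of Dcn on the high fat diet and at 0.238 and 0.239 on chow. The ratio was higher in each high fat diet library, again the 1 member without overlap, where 7.3% of genes lay wholly higher and 2.96% wholly lower on this scale. Fmod stood at 0.125, 0.158 and 0.175 on the high fat diet and at 0.111 and 0.127 on chow, an overlap by high fat diet replicate 2. Ogn stood at 0.102, 0.143 and 0.113 on the high fat diet and at 0.134 and 0.137 on chow.

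Lum, Bgn and Aspn did not separate on this scale either. Relative to Dcn, Lum was at 0.204, 0.269 and 0.387 on the high fat diet and 0.290 and 0.303 on chow, and Bgn at 0.489, 0.717 and 0.822 on the high fat diet and 0.576 and 0.659 on chow. Aspn was at 0.233, 0.271 and 0.329 on the high fat diet and 0.271 and 0.253 on chow. For each of these the high fat diet libraries surrounded the chow libraries. Such ratios show unequal levels within a library, not which of the pair differed.

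**Figure D4:**
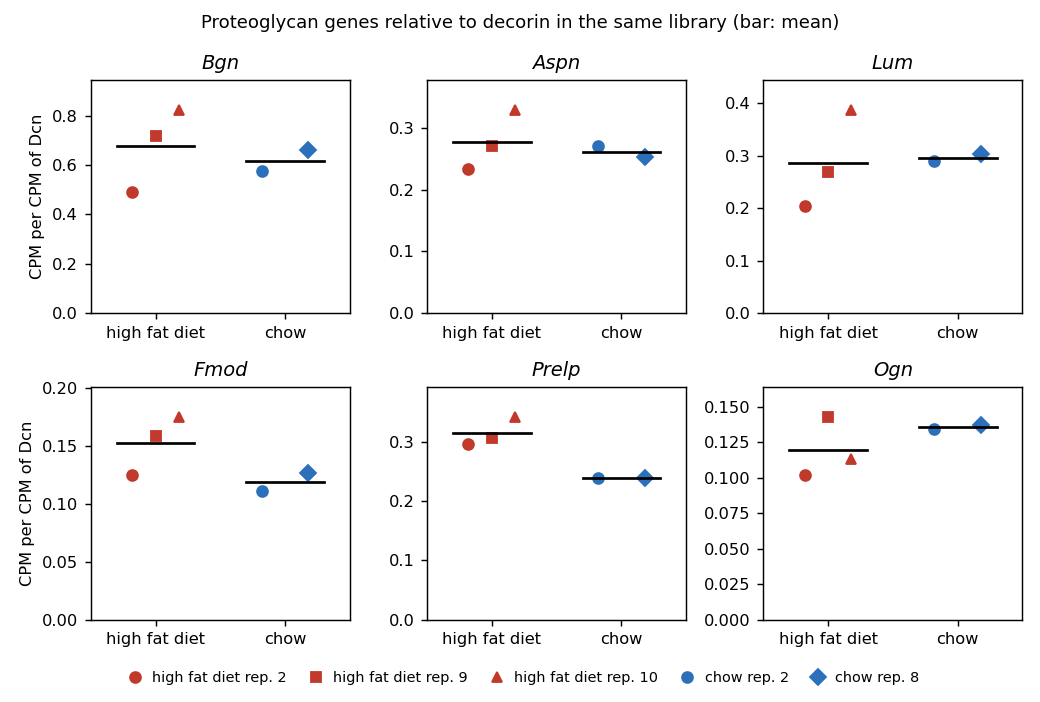
CPM of 6 proteoglycan genes divided by the CPM of Dcn in the same library, by diet, with the mean as a bar and each symbol 1 library. Prelp is at 0.296 to 0.341 on the high fat diet and at 0.238 and 0.239 on chow, while the groups of the other 5 genes overlap.

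None of the genes listed as partners of the collagen fibrils that the proteoglycans coat passed the test. The list held collagen genes, genes for their processing, and the matrix genes Fbn1, Eln and Tnxb. Of 19 such partners, 17 had a log2 fold change above 0, and the median was 0.14, beside 0.01 over all genes. Their summed level was 5499, 8354 and 10711 CPM in high fat diet replicates 2, 9 and 10, and 8142 and 6706 CPM in chow replicates 2 and 8. High fat diet replicate 2 was the lowest and replicate 10 the highest, as for Lum and Bgn. Groups that did not overlap were found for 0 of the 19, where 10.6% of all genes were wholly higher and 10.3% wholly lower. Col1a1, Col1a2, Col3a1, Pcolce and Loxl1 are also among the fibroblast markers, so the sums of these lists are not separate results. The 4 of smallest p were Bmp1, a protease that trims procollagen and probiglycan, at 0.40, Tnxb, a tenascin of the dermis, at 0.31, Col12a1 at 0.14 and the cross-linking oxidase Loxl2 at 0.40. Col1a1, picked after its values were seen, had 570, 854 and 1284 CPM on the high fat diet and 822 and 767 CPM on chow. Col3a1, picked in the same way, had 1557, 2562 and 3466 CPM on the high fat diet and 2754 and 2040.5 CPM on chow. All 7 airway markers were above 0, with a median of 0.80 and 0 passed, and 4 were wholly higher, where 10.6% of all genes were. They summed to 803, 1202 and 6156 CPM in high fat diet replicates 2, 9 and 10 and to 614 and 802 CPM on chow. Of the sum in replicate 10, 4638 CPM was the mucin gene Muc5b, picked after its values were seen, which had 106 and 159 CPM in replicates 2 and 9 and 75.7 and 92.4 CPM on chow. The part of airway tissue in the members' levels was not tested.

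Of 7 markers of activated fibroblasts (myofibroblasts) 6 had a log2 fold change above 0 and 0 passed. The median was 0.55, the sums were 777, 1115 and 1200.2 CPM on the high fat diet and 1032 and 996 CPM on chow, and these overlapped. Acta2, smooth muscle actin, was at 29.6, 36.6 and 42.6 CPM on the high fat diet and 26.6 and 23.1 CPM on chow, and Inhba, an activin subunit, at 11.1, 15.6 and 17.7 CPM on the high fat diet and 10.0 and 8.08 CPM on chow. The groups of both genes did not overlap, with log2 fold changes of 0.55 and 0.71 and edgeR adjusted p of 0.697 and 0.711. These were the 2 of 7 markers that were wholly higher, where 10.6% of all genes were. Cthrc1 stood at 0.78 and the matrix protein Tnc at -0.27. Among the fibroblast markers the 4 of smallest p were Fbln2 at 0.33, Serpinf1 at 0.22, Cd34 at 0.24, which was -0.01 without chow replicate 8, and Col15a1 at -0.26.

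Tendon and cartilage genes are given because Prelp and Fmod are abundant in those tissues. The 13 tested of 17 listed had 10 above 0, a median of 0.36 on the log2 scale, and 0 that passed. The cartilage genes Col2a1, Matn1 and Matn3 and the gene Clec3a were absent from the count table, and the lowest count of the list was 9. Of the 13, 3 were wholly higher and 1 wholly lower, where 10.6% and 10.3% of all genes were. The 13 genes summed to 759, 979.9 and 847 CPM on the high fat diet and 904 and 762 CPM on chow, so the sums overlapped. Scx, a tendon transcription factor, had 27.0, 23.4 and 29.7 CPM on the high fat diet and 19.1 and 19.3 CPM on chow, a log2 fold change of 0.48 (edgeR adjusted p = 0.661). Col9a1 stood at 0.33, Comp at 0.39 and Sox9, a cartilage transcription factor also active in some epithelia, at -0.22. The part of such tissue in the levels of Prelp and Fmod was not tested.

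**Figure D5:**
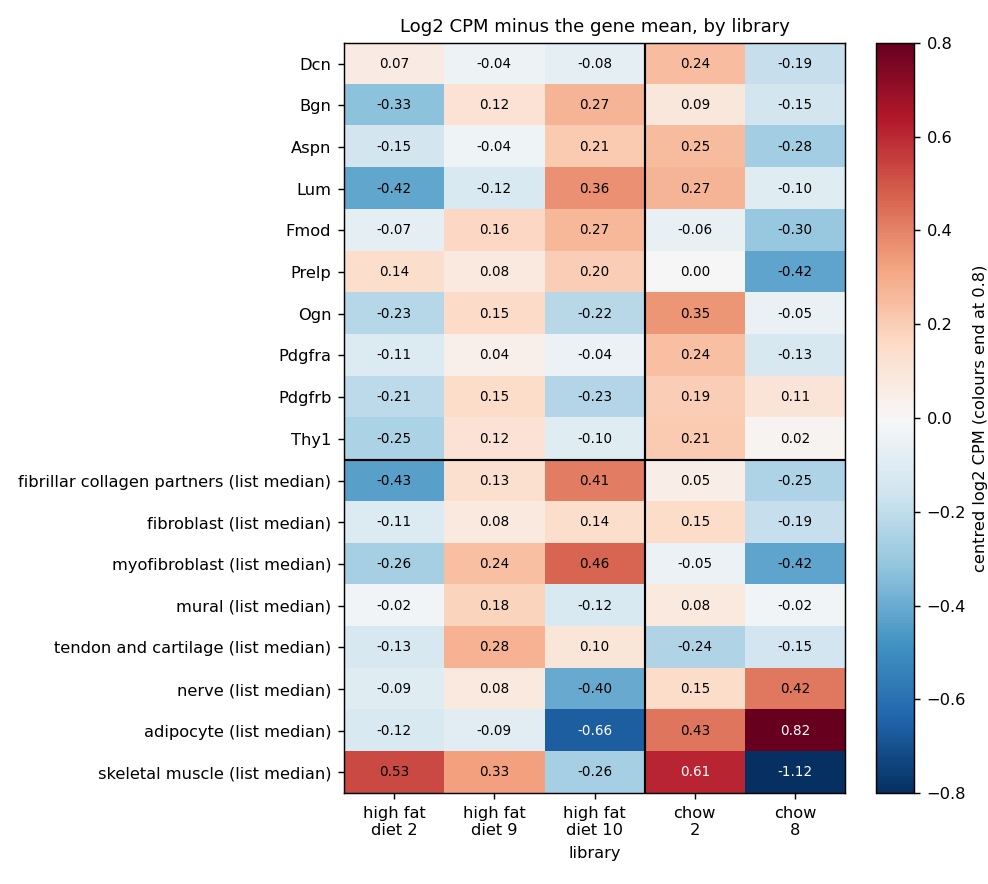
Log2 CPM minus the gene's mean over the 5 libraries, for the 10 genes (above the line) and as list medians for matrix and marker lists (below it), with the high fat diet libraries left of the chow libraries. Chow replicate 8 is below chow replicate 2 in each of the 10 genes, and high fat diet replicates 2 and 10 stand at opposite ends for Lum (-0.42 and 0.36) and for the collagen list (-0.43 and 0.41).

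None of the other leucine-rich proteoglycan genes passed the test. Of 11 listed genes 9 were tested, 2 of them above 0 and 7 below, and the median was -0.07. Omd (osteomodulin), between Aspn and Ogn, was at 1.29, 2.37 and 2.04 CPM on the high fat diet and 3.33 and 2.46 CPM on chow, with a log2 fold change of -0.61 (SE 0.33, edgeR adjusted p = 0.956). It was the 1 of 9 that was wholly lower, where 10.3% of all genes were. In the same row of genes Ecm2 had -0.21, so 3 of the 4 neighbours on chromosome 13 were below 0 and Aspn was at 0.00. Chad (chondroadherin) had 0.70 and Podnl1 had -0.45. Next to Lum, Kera (keratocan) was at 0.483, 2.83 and 2.06 CPM on the high fat diet and 1.30 and 2.36 CPM on chow, and Epyc (epiphycan) at 6.72, 10.2 and 16.9 CPM on the high fat diet and 14.7 and 12.3 CPM on chow. Epyc had the same order of high fat diet libraries as Lum.

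The enzymes that build the sugar chains included the 1 pathway gene called by any tool, DESeq2. Of 28 tested, 18 were above 0 and 10 below, the median was 0.11, and 0 passed in edgeR. At an unadjusted p under 0.05 there were 3 of 28 higher and 3 lower, where 2.95% of all genes were higher and 2.47% lower. Of the 28, 4 were wholly higher and 5 wholly lower, where 10.6% and 10.3% of all genes were. Chst1, which sulfates keratan sulfate, the chain carried by Lum and Fmod, had 41.3, 43.5 and 59.0 CPM on the high fat diet and 20.5 and 30.1 CPM on chow. Its groups did not overlap, and the log2 fold change was 0.92 (SE 0.22, edgeR adjusted p = 0.574). DESeq2 called it, with an adjusted p of 0.0185, while over the other alternatives its adjusted p ran from 0.446 to 0.868.

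The chondroitin and dermatan enzymes went both ways. Chst11, a chondroitin 4-sulfotransferase, had 56.9, 51.5 and 41.5 CPM on the high fat diet and 65.8 and 82.2 CPM on chow, a log2 fold change of -0.57 (SE 0.16, edgeR adjusted p = 0.626). Ust, a uronyl 2-sulfotransferase, had -0.44 with the same lack of overlap, and the chain polymerase Chsy3 had 0.51. Chains of this kind are carried by Dcn and Bgn, and none of these enzymes passed.

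Of 7 PDGF ligands and activators, 6 were above 0 and the median was 0.16, while Pdgfra and Pdgfrb were below 0. Plat, the protease that activates PDGF-C, had 0.19, the ligands Pdgfb and Pdgfc had 0.16 and 0.36, and the convertase Furin had 0.18, which was -0.06 without high fat diet replicate 10. None passed.

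Of 18 genes of the TGF-beta pathway, which Dcn, Bgn, Aspn and Fmod bind, 12 were above 0, with a median of 0.04, and 0 passed. Smad7, the feedback inhibitor, was at 23.1, 20.2 and 30.1 CPM on the high fat diet and 16.1 and 15.4 CPM on chow, a log2 fold change of 0.64 (SE 0.18, edgeR adjusted p = 0.633). Tgfbi, a matrix protein induced by TGF-beta, was at 254, 315 and 441 CPM on the high fat diet and 235 and 226 CPM on chow, a log2 fold change of 0.54 (SE 0.22, edgeR adjusted p = 0.904). Both were wholly higher, as were Tgfbr2 at 0.24 and Ltbp3 at 0.25, so 4 of 18 were, where 10.6% of all genes were. The receptor Tgfbr1, picked after its values were seen, stood at -0.14 and was the 1 gene of the list that was wholly lower, where 10.3% of all genes were.

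Of 14 receptors that bind the proteoglycans or Thy1, 10 were above 0 with a median of 0.08, and 0 passed. Egfr, a partner of decorin, had 58.7, 64.6 and 55.02 CPM on the high fat diet and 80.3 and 68.7 CPM on chow, wholly lower, with a log2 fold change of -0.33 (SE 0.12, edgeR adjusted p = 0.854). Tlr2, a receptor of biglycan, had -0.29 and was wholly lower too, so 2 of 14 were, where 10.3% of all genes were. Sdc4, a binding partner of Thy1, had 0.51 and the collagen receptor subunit Itga2 had 0.64.

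Genes whose pattern over the 5 libraries was most like that of the members were sought among 9794 genes of at least 10 CPM, by the root mean square difference of centred log2 CPM. The 5 nearest to the mean of the 7 proteoglycans were D930015E06Rik (0.025), P3h3 (0.031), Nfam1 (0.031), C1qc (0.031) and Adgre1 (0.031), where the mean profile itself spanned 0.38. P3h3 is a collagen prolyl hydroxylase, Nfam1 an NFAT activating molecule and C1qc a complement chain, and Adgre1 is in the macrophage list. Nearest to Dcn were Lmo2, Dscr3 and C2, and nearest to Pdgfra were Fyb, H2-Eb1 and Tspan2. Those nearest to Pdgfrb were Emsy, Qk and 2010111I01Rik, and those nearest to Thy1 were Xylb, Inpp4a and Prcp. All lay within 0.042 of their member, and with 5 libraries the likeness is a description.

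The authors' deposited table, whose folds are signed as chow over high fat diet, also calls none of the members. It lists a fold of -1.24 for Prelp and -1.22 for Fmod, both lower on chow, and 1.19 for Ogn and 1.18 for Pdgfrb, both higher on chow. In that table the adjusted p of these 4 genes is 0.971, and the fold of Dcn is 1.08 with an adjusted p of 0.981.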

How the data were processed

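Total RNA of whole mouse thyroid was made into stranded libraries, per the labels' protocols. HISAT2, StringTie, DESeq2 and the build mm10 appear in the submitters' processing notes with no roles or versions. The use of strand in counting is not given in the sources used here. Whole-number counts and FPKM values per gene were deposited, and no gene has a count below 1 in any library. The authors' deposited table also holds signed fold scores of chow over high fat diet with p-values and adjusted p-values. Columns spell high fat diet with another middle letter and were assigned by treatment and number. Another 3 count columns, which match none of the samples, were left out.

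The counts were fitted with edgeR 4.0.16 (R 4.3.3) on diet alone, with TMM factors, filterByExpr (648 genes removed, 15765 kept) and robust quasi-likelihood shrinkage, high fat diet over chow. Benjamini-Hochberg adjustment ran over all genes tested, with a threshold of 0.05. Standard errors and 95% intervals come from that fit. The fits were tested on simulated counts with known changes. Alternatives were RLE and upper-quartile factors, library totals without TMM or without Tg, no filter, a filter of 1 CPM, DESeq2 1.42.0, limma-voom (limma 3.58.1), no robust shrinkage, limma on log2(FPKM + 1) and log2(FPKM + 0.1), a threshold of 0.10 and each library left out in turn. The ratio to Dcn was added after the data were seen.

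The members and gene lists were chosen with earlier results of these data known. Besides the members, the text names up to 4 genes of smallest p per list, and the genes of nearest pattern. Further names are genomic neighbours, examples of a list, or marked in the text as picked with their values known. Lists are described by counts and medians, without set tests. Intervals cover the spread between these libraries.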

Additional observations from a re-analysis of the deposited data

How the results depend on the processing

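In each of the 17 alternatives 0 of the 10 members passed in either direction, and their lowest adjusted p was 0.659, for Fmod without high fat diet replicate 2. Signs turned for 5 members. Dcn was 0.013 without TMM factors, 0.037 with limma on log2(FPKM + 1) and on log2(FPKM + 0.1), and, over the libraries left out in turn, -0.26 to 0.16 (0.16 without chow replicate 2). Lum ranged from -0.36 to 0.069 and was 0.041 without high fat diet replicate 2 and 0.069 without chow replicate 2, and Pdgfra ranged from -0.27 to 0.090 and was positive without chow replicate 2. Aspn ranged from -0.23 to 0.29 and was -0.000666 with RLE factors, -0.000171 without Tg, -0.10 without high fat diet replicate 10 and -0.23 without chow replicate 8. Bgn ranged up to 0.22 and was -0.064 without high fat diet replicate 10 and -0.043 without chow replicate 8. Of the list genes named, Cd34 ranged from -0.012 without chow replicate 8 to 0.55, and Furin from -0.059 without high fat diet replicate 10 to 0.32. Prelp and Fmod kept their direction in each alternative, as did Ogn, Pdgfrb and Thy1. The median of all genes was 0.097 without TMM factors, beside 0.012 with them.

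Over all genes DESeq2 called 49 higher and 47 lower, and the threshold of 0.10 gave 6 and 4. DESeq2 called 1 of 96 pathway genes higher (Chst1), and of 107 marker genes 2 higher and 2 lower. Over all genes it called 0.305% higher and 0.292% lower. The threshold of 0.10 gave 1 of 107 marker genes higher, where 0.0381% of all genes were. With 1 library left out, edgeR called 0 to 2 genes higher (2 without chow replicate 8, 1 without high fat diet replicate 2) and 0 to 3 lower (3 without chow replicate 8, 2 without chow replicate 2 and 2 without high fat diet replicate 2). Of these, 0 to 1 were marker genes, lower without chow replicate 8. Members with groups that did not overlap numbered 1 to 5 higher (3 without high fat diet replicate 2, where 18.2% of all genes were, and 5 without chow replicate 2, where 25.7% were). They numbered 0 to 6 lower (6 without chow replicate 8, where 23.7% of all genes were, 3 without high fat diet replicate 9, where 16.6% were, and 1 without high fat diet replicate 10, where 16.9% were). Fewer libraries overlap less by construction. CPM per kilobase is no separate check of the order of levels, since its lengths are those the FPKM imply. No paired analysis was possible because the diets share a single replicate number.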
